A study of Mus musculus with 32 samples.

Results

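The nuclear genes that encode respiratory complexes II to V were examined in laser-captured cells of the mouse lumbar spinal cord. Members were taken by the gene name printed for each array probe: Sdha, Sdhb, Sdhc, Sdhd and Cyc1, and every name beginning with Uqcr, Cox4i, Cox5, Cox6, Cox7, Cox8 or Atp5. This gave 45 genes on 60 probes, of 27843 genes and unnamed single probes on 41174 probes in all. Complex II had 4 members, complex III 8, complex IV 17 and complex V 16, and a gene with several probes was read from its brightest. For the subunits that mitochondrial DNA encodes, 0 probes were matched to the current symbols looked up, and mt-Atp6 of complex V was not looked up under its own symbol. Whether the array carries probes for them under other names was not checked. Those partners of complexes III, IV and V were therefore not examined.

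The study set transgenic mice against littermates in 4 comparisons of 4 littermate pairs each, in motor neurons and in glia. SOD1-G93A mice carried mutant human superoxide dismutase (strain B6SJL-Tg(SOD1-G93A)1Gur, controls B6SJL) and were 8 weeks old. TAU-P301L mice carried mutant human tau (strain B6D2F1-Tg(TAU-P301L), controls B6D2F1) and were 16 weeks old, so model, age and background strain cannot be told apart. All animals were female, and 500 anterior horn motor neurons or 500 cells around them were captured per mouse from cresyl violet sections. The labels do not name the promoter of either transgene. The dyes were exchanged between the 2 arrays of a littermate pair, which together count as 1 replicate. Values are log2 ratios of transgenic over control unless said otherwise, where 0 means equal.

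The respiratory chain sits in the inner mitochondrial membrane. Complex II, succinate dehydrogenase, feeds electrons from the tricarboxylic acid cycle into ubiquinone. Complex III passes them to cytochrome c, complex IV (cytochrome c oxidase) passes them to oxygen, and complex V (ATP synthase) uses the resulting proton gradient to make ATP. Motor neurons have long axons and a high demand for ATP, and glia support them metabolically. Several complex IV subunits exist as a general isoform and a second isoform typical of heart and skeletal muscle, lung or testis.

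Genes of the respiratory chain are known targets of the transcription factors NRF1, GABPA (an ETS factor) and YY1. RefSeq promoter windows (build GRCm38.p6) were at hand for 34 of the 45 members, and the 250 bases before the annotated start were searched on both strands for fixed letters. The NRF1 core GCATGCG was present in 5 of 34 members (14.7%) against 3.07% of all 27025 gene promoters, and the GABPA letters CCGGAAG in 8 (23.5%) against 7.05%. The YY1 letters AAGATGG were in 0 of 34 against 4.53% of all promoters. GGGCGG, the SP1 box, was as frequent as elsewhere, in 11 members (32.4%) against 32.9%. TATAAA was in 1 member (2.94%) against 13%. A match is a description of the letters and no evidence of binding. The windows of 4 members that differed between cell types are printed 5′ to 3′, first a pair higher in control motor neurons (Sdhb and Sdhd) and then a pair higher in control glia (Cox6a1 and Cox7a2). Capitals mark the letters of any of these motifs on either strand, and in Cox6a1 the run CGCATGCG is a match on both strands that overlaps itself.
Sdhb, chr4:140961021-140961270, plus strand: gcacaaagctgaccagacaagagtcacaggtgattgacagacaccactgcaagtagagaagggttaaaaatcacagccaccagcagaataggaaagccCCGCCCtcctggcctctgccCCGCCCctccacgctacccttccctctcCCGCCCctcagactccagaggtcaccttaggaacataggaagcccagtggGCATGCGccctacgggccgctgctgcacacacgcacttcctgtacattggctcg
Sdhd, chr9:50603850-50604099, minus strand: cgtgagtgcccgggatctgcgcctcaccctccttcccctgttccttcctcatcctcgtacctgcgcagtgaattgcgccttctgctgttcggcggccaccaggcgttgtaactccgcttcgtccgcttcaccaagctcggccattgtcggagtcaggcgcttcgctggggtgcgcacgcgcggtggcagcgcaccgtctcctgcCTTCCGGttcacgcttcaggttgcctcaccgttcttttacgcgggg
Cox6a1, chr5:115348959-115349208, minus strand: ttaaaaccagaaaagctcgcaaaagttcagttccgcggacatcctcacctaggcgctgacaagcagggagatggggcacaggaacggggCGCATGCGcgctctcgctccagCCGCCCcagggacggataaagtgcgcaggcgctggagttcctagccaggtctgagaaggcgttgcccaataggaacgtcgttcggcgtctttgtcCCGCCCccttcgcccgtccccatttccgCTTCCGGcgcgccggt
Cox7a2, chr9:79759854-79760103, minus strand: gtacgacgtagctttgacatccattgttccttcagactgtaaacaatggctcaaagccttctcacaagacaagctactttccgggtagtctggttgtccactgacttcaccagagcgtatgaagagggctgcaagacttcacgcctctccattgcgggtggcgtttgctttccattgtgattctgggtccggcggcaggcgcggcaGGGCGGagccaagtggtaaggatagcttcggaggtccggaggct
Sdhb held 1 NRF1 core and 3 SP1 boxes, Sdhd 1 GABPA match, Cox6a1 matches for NRF1, GABPA and SP1, and Cox7a2 1 SP1 box. The 2 genes of each pair thus share a direction in the expression data but not one set of letters.

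The captures were enriched for neurons but not pure. In control extracts, 9 of 19 measured motor neuron markers were higher in the motor neuron captures and 2 lower (limma adjusted p under 0.05). The shares over all genes tested were 24.7% and 12.7%. The 2 lower were Mnx1 (-0.36 ± 0.086 SE) and Esrrg (-1.29 ± 0.41 SE), and 7 of the 19 had a difference below 0. Of 14 interneuron markers 6 were higher and 0 lower. The choline transporter Slc5a7 was higher by 1.16 ± 0.31 (SE) with an adjusted p of 0.0102, and neurofilament Nefm by 1.59 ± 0.20 (SE). The cholinergic enzyme gene Chat was dim, at 6.22 and 6.27 in the respective cell types, and its difference did not pass (-0.058 ± 0.069 SE). Of 11 oligodendrocyte markers 6 were lower in motor neuron captures, and of 12 astrocyte markers 5, while myelin gene Mbp was still bright there at a mean log2 intensity of 11.8 against 12.8 in glia. Expression of the human transgenes was not checked here, and the ratio of mouse Sod1 in SOD1-G93A mice was -0.074 in motor neurons and -0.10 in glia, neither of which passed the test.

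Some libraries stood apart. In SOD1-G93A motor neuron pair 3 the mean level of 42 members was 8.13 in the control and 8.17 in the transgenic extract, against 9.34 to 9.59 in the other 7 motor neuron controls. Over all tested genes the same control lay at 6.66 against 6.95 to 7.01, and its dye-swapped arrays correlated at 0.00054. Both glia pairs of scan 5, SOD1-G93A pair 2 and TAU-P301L pair 1, had dye-swapped arrays that ran against each other (r = -0.46 and -0.75 over tested genes) and 1870 to 7207 flagged spots per array, against 1 to 306 elsewhere. Dye-swapped arrays also correlated below 0 in pair 3 of TAU-P301L motor neurons (-0.21), pair 3 of TAU-P301L glia (-0.09) and pair 1 of SOD1-G93A glia (-0.083). Members were bright genes, with control means of 8.13 to 9.59 against 6.66 to 7.01 over all tested genes. Motor neuron and glia arrays were scanned apart and with different software versions, so cell type cannot be told apart from either.

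**Figure D1:**
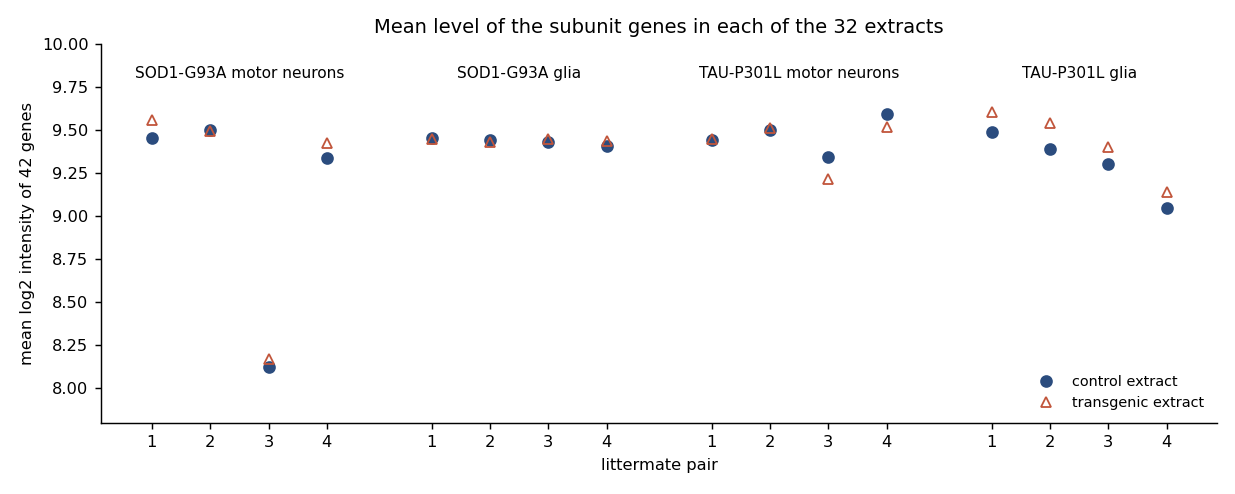
Mean log2 intensity of 42 subunit genes (vertical axis) in each of the 32 extracts, by comparison and littermate pair (horizontal axis), with filled circles for control and open triangles for transgenic extracts. Both extracts of SOD1-G93A motor neuron pair 3 lie near 8.1 to 8.2, below the others, and the transgenic extract lies above its control in all 4 TAU-P301L glia pairs.

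Control motor neurons and control glia were compared first. Of 42 members tested in 8 control extracts of each cell type, 11 differed (limma, Benjamini-Hochberg adjusted p under 0.05): 7 were higher in motor neurons and 4 lower. This share was below the background, since 37.4% of the 13078 genes tested differed (24.7% higher and 12.7% lower in motor neurons). The mean difference over members was -0.0061, with 21 genes above 0 and 21 below, against 0.043 over all genes. It was -0.30 in the SOD1-G93A colony and 0.29 in the TAU-P301L colony, so the mean over members had no stable direction. Some members entered the test through the motor neurons alone. Where both cell types had to be well above background in at least 4 of 8 extracts, a setting added after seeing the data, 8 of 38 members differed (21.1%, background 32.6% of 8468 genes), 4 in each direction. Of the 11, Sdhb and Cox7a2l were then untested and Cox6b1 did not pass. In captured tissue, fewer cells of a type and less RNA per cell cannot be told apart.

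All 4 complex II genes had a difference above 0, motor neurons minus glia, with a mean of 0.63. Of these, 3 passed the test, of which Sdhc and Sdhd were measured in both cell types. Sdhd, a membrane anchor of the complex, was higher by 1.05 ± 0.19 (SE) with a limma adjusted p of 9.8e-04. Its lowest, median and highest levels were 7.56, 8.44 and 9.13 in motor neurons and 7.08, 7.50 and 7.81 in glia. Of the motor neuron extracts, SOD1-G93A pair 3 alone, at 7.56, lay within the glia range. Sdhb, the iron-sulfur subunit, was well above background in 7 motor neuron and 3 glia extracts, so its glial level lay near the floor of the array and its measured difference of 0.80 ± 0.11 (SE) is set against that floor. Its levels were 6.47, 6.81 and 7.33 in motor neurons and 5.92, 6.08 and 6.24 in glia, and each of the 8 motor neuron values lay above each of the 7 unflagged glia values, as for 5.05% of all genes. Sdhc, the other membrane anchor, was higher by 0.54 ± 0.14 (SE) (adjusted p = 0.00874). Another Sdhc probe, too dim to be tested, gave -0.24, of opposite sign to the brightest. The catalytic flavoprotein gene Sdha did not pass, at 0.15 ± 0.12 (SE) with an adjusted p of 0.363.

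Among 8 complex III genes only Uqcrq, a small accessory subunit, passed the test, lower in motor neurons with a difference of -0.94 ± 0.35 (SE) and an adjusted p of 0.0488. Levels of Uqcrq were 9.001, 11.55 and 11.70 in motor neurons, where 6 extracts had an unflagged value, and 11.75, 12.06 and 12.40 in glia, with no overlap, as for 1.86% of all genes. The lowest value, 9.001, came from SOD1-G93A pair 3, and without that pair the difference was -0.39. Uqcrq passed in 6 of 28 alternatives, so its call rests on the settings used. The core proteins Uqcrc1 and Uqcrc2 differed by -0.13 ± 0.29 (SE) and 0.23 ± 0.23 (SE), cytochrome c1 (Cyc1) by 0.24 ± 0.23 (SE) and the Rieske protein Uqcrfs1 by -0.19 ± 0.27 (SE). None of these 4 passed.

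Complex IV held 3 of the 4 genes that were lower in motor neurons. Cox6a1, the general isoform of subunit VIa, had a difference of -1.22 ± 0.39 (SE) (limma adjusted p = 0.0232). Cox6a1 lay at 9.32, 12.45 and 13.08 in motor neurons and 12.99, 13.15 and 13.57 in glia. The glia extracts were tightly grouped and the motor neuron extracts spread, with SOD1-G93A pair 3 the lowest at 9.32. Without that pair the difference of Cox6a1 was -0.75. Cox7a2, the general isoform of subunit VIIa, differed by -0.81 ± 0.24 (SE) (limma adjusted p = 0.015), from levels of 8.38, 10.02 and 10.45 against 10.16, 10.66 and 11.08. Its other probe gave -0.77. Cox5b, one of the nuclear subunits bound to the catalytic core, differed by -0.63 ± 0.14 (SE) (limma adjusted p = 0.00307). Cox6b1, a subunit on the cytochrome c side, was higher in motor neurons by 0.33 ± 0.12 (SE) (limma adjusted p = 0.039). Cox7a2l, which helps to join complexes III and IV, was called higher as well, but it was above background in 7 motor neuron and 1 glia extracts, and its measured difference of 0.55 ± 0.13 (SE) is set against the floor of the array in glia. Cox4i1, the general form of the large regulatory subunit, did not pass at -0.94 ± 0.43 (SE) and an adjusted p of 0.0967.

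Isoforms typical of other organs were mostly dim. Cox4i2, the lung and hypoxia isoform, and Cox8c, a testis isoform, were well above background in 0 of 16 control extracts. Cox8b, the muscle isoform of subunit VIII, was above background in 3 motor neuron and 3 glia extracts, and Cox6a2, the muscle isoform of subunit VIa, in 4 and 2. Cox7a1, the muscle isoform of subunit VIIa, was in contrast measured in 7 extracts of each cell type, at a mean log2 intensity of 6.95 ± 0.25 in motor neurons and 7.12 ± 0.42 in glia (SD, n = 8), a difference of -0.17 ± 0.17 (SE) that did not pass. The testis isoform Cox6b2 was above background in 8 motor neuron and 7 glia extracts and differed by 0.068 ± 0.17 (SE). Cox8a, the general form of subunit VIII, differed by -0.29 ± 0.24 (SE).

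Complex V was nearly balanced, with 7 genes above 0 and 9 below and 2 that passed, both higher in motor neurons. Atp5f1 (now Atp5pb), subunit b of the peripheral stalk, was higher by 0.93 ± 0.28 (SE) (adjusted p = 0.017), at 8.09, 9.85 and 10.39 against 7.92, 8.68 and 9.15. Its other probes gave smaller differences, 0.28 and, on a probe too dim to be tested, 0.10. Atp5g1, Atp5g2 and Atp5g3 encode the same mature c subunit of the proton-driven ring. Atp5g1 was higher by 0.67 ± 0.16 (SE) (adjusted p = 0.00539), while Atp5g2 and Atp5g3 differed by 0.27 ± 0.19 (SE) and -0.48 ± 0.43 (SE) and did not pass. The catalytic subunits Atp5a1 and Atp5b differed by 0.053 ± 0.43 (SE) and -0.19 ± 0.40 (SE). For Atp5b another probe gave 0.60, of opposite sign to the brightest.

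The number of members called moved with single libraries. Without SOD1-G93A motor neuron pair 3, 19 members passed (45.2%, background 43.2%), the same 11 and also Atp5a1, Atp5g2, Atp5h, Cox5a, Cox7c, Cyc1 and Uqcrc2 (higher) and Cox4i1 (lower). In the SOD1-G93A colony alone 2 passed, Sdhb and Sdhc (4.76%, background 4.94%), and in the TAU-P301L colony alone 7 (16.7%, background 14.1%). With scan as a random block 2 passed, Sdhb and Sdhd (4.76%, background 8.01%). The transgenic extracts in place of the controls gave 10 calls, all of them among the 11 (23.8%, background 28.3%). The lowest and highest counts on leaving out 1 control extract were 9 and 19.

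**Figure D2:**
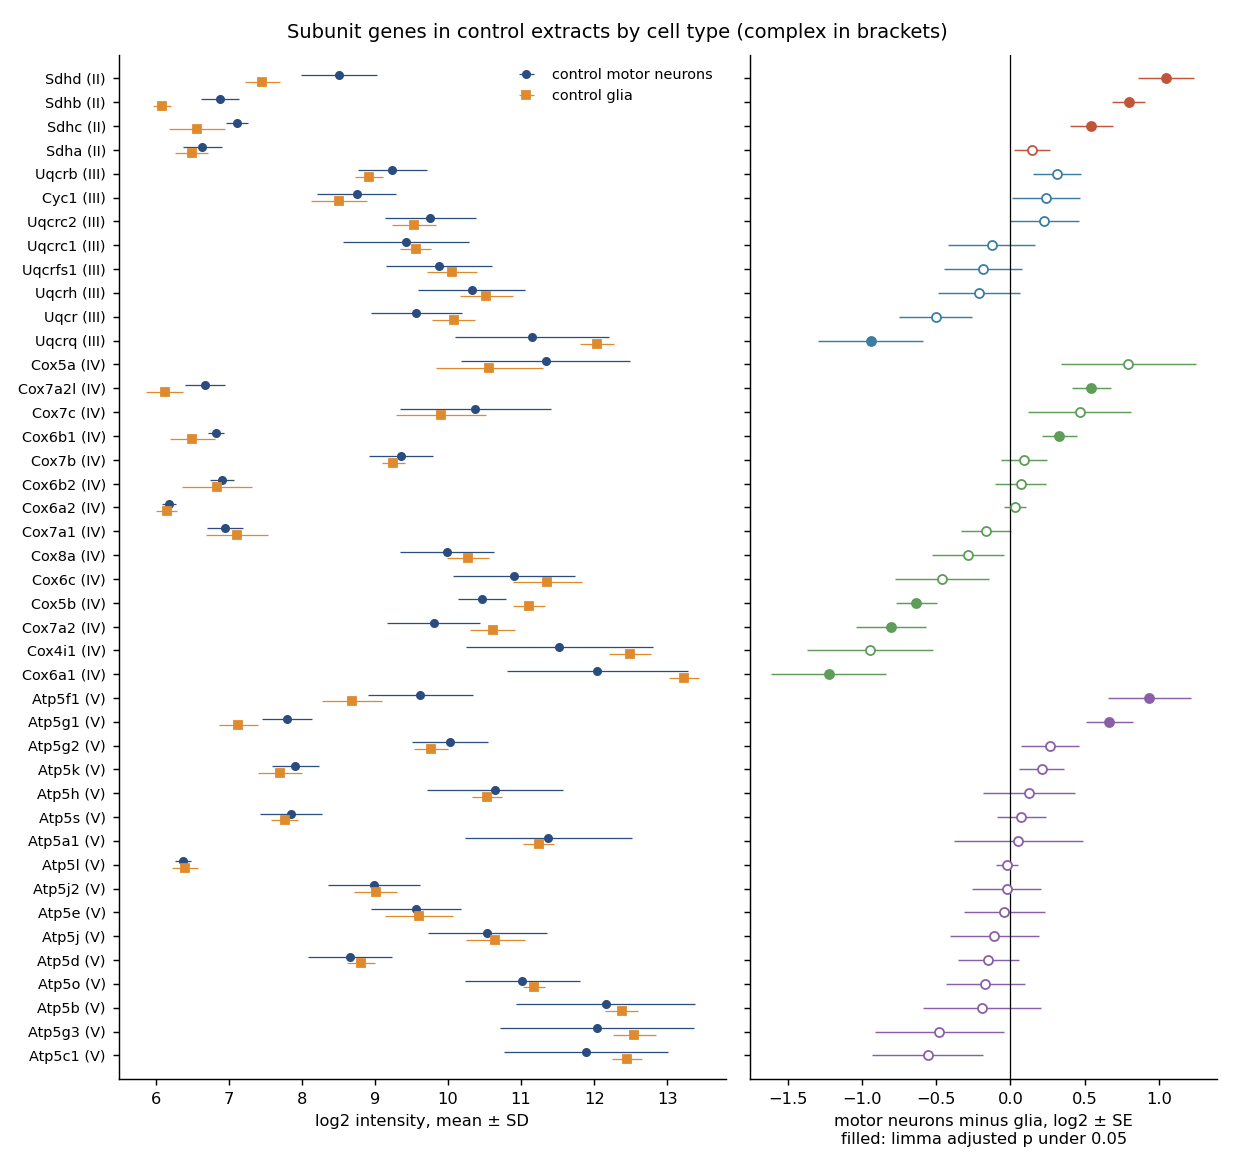
Left, mean log2 intensity ± SD of the 42 tested subunit genes in 8 control motor neuron (circles) and 8 control glia (squares) extracts. Right, the motor neuron minus glia difference ± SE, with filled points for limma adjusted p under 0.05 and colours by complex; 3 of 4 complex II genes are filled and above 0 (Sdhb with its glia values near the array floor), and the filled points of complex IV lie on both sides.

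Other genes of the pathway were counted in the same fit. Of 36 complex I genes 12 were higher in control motor neurons (33.3%) and 2 lower (5.56%). Of 25 genes for cytochrome c and assembly factors of complexes II to V 11 were higher (44%) and 1 lower (4%), and of 15 tricarboxylic acid cycle genes 5 were higher (33.3%) and 1 lower (6.67%). The shares were 16.7% and 9.52% of the members and 24.7% and 12.7% of all genes, and the differences between these shares were not tested. The median differences were 0.013, 0.35 and 0.30, against 0.0057 for the members and 0.092 for all genes.

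No member passed the test for a change with either transgene. Of the members tested, 0 of 43 in SOD1-G93A motor neurons, 0 of 41 in SOD1-G93A glia, 0 of 41 in TAU-P301L motor neurons and 0 of 38 in TAU-P301L glia passed (limma, adjusted p under 0.05), against a background of 0% of all genes tested in each comparison. At an unadjusted limma p under 0.05 the members gave 4 of 43 (background 9.37% of 13323 genes), 4 of 41 (15% of 10483), 2 of 41 (3.41% of 11655) and 2 of 38 (12.9% of 8934). Members left untested for low signal were Cox4i2 and Cox8c throughout. Cox6a2 was also untested outside SOD1-G93A motor neurons, Cox8b in both TAU-P301L comparisons, Atp5l in both glia comparisons, and Cox7a2l and Sdhb in TAU-P301L glia.

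Few members kept 1 sign in all 4 pairs. In SOD1-G93A motor neurons 0 members were above 0 and 0 below 0 in all 4 pairs (background 5.46% and 7.87%). In SOD1-G93A glia the counts were 3 above (9.57%) and 2 below (9.35%), and in TAU-P301L motor neurons 1 above (6.48%) and 3 below (6.11%). In TAU-P301L glia 6 members, Atp5e, Atp5f1, Atp5g3, Cox7a2, Cox7b and Sdhd, were above 0 in all 4 pairs (8.78%) and 1, Atp5h, below (8.6%). Members and background genes without a value in all 4 pairs could not count. Among such members, Cox4i1 and Cox6a1 were above 0 in their 3 measured SOD1-G93A motor neuron pairs. Uqcrc1 was below 0 in its 3 measured pairs in motor neurons of each model. In TAU-P301L glia Atp5g1 (3 pairs) and Atp5a1 (2 pairs) were above 0 throughout.

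The mean ratio over the tested members was near 0 in 3 comparisons. In pairs 1 to 4 it was 0.11, -0.0010, 0.046 and 0.080 in SOD1-G93A motor neurons, a mean of 0.058 ± 0.047 (SD, n = 4 pairs). SOD1-G93A glia gave -0.0028, -0.012, 0.016 and 0.026 (0.0068 ± 0.017), and TAU-P301L motor neurons gave 0.011, 0.014, -0.13 and -0.075 (-0.044 ± 0.069). Pairs of either sign occurred in all 3 comparisons. The counts of members with a mean ratio above 0 were 25 of 43 (background 50.1%), 21 of 41 (57.4%) and 15 of 41 (46.4%). The direction in SOD1-G93A motor neurons depended on the scaling: it was -0.20 when arrays were centred on their median without loess and 0.19 from the scanner software's processed signals. In SOD1-G93A glia the median centring gave 0.29 in place of 0.0068, while the median of all tested genes was 0.064 in place of 0.018.

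In TAU-P301L glia most members leaned one way. The member mean was 0.12, 0.16, 0.11 and 0.098 in the 4 pairs (0.12 ± 0.026), against -0.021, -0.0025, -0.042 and 0.044 over all 8934 genes tested. Each pair lay above the highest pair mean of all genes. Of 38 members 33 had a mean ratio above 0, against 50.9% of all genes, and every scaling tried kept the direction, with means from 0.12 to 0.47. By complex the counts above 0 were 3 of 3, 8 of 8, 8 of 12 and 14 of 15 for II, III, IV and V. Complex I stood at 31 of 32 with a pair mean of 0.17, and the tricarboxylic acid cycle at 13 of 14 with 0.12.

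Lists of cell type markers leaned in this comparison as well, in either direction. Astrocyte markers were below 0 in 10 of 11 genes in TAU-P301L glia, with list means of -0.24, -0.16, -0.31 and -0.12 in pairs 1 to 4, and 5 of the 11 were below 0 in all 4 pairs. With median centring in place of loess, 6 of 11 astrocyte markers were above 0, with a mean of 0.067. All tested genes moved up as well under that scaling, with 76.7% above 0 and a median of 0.078. Against that median 5 astrocyte markers lay above and 6 below. Oligodendrocyte markers were below 0 in 8 of 11, with means of -0.30, -0.20, -0.024 and -0.10, while 11 of 15 motor neuron markers were above 0 (0.34, 0.16, -0.12 and 0.22). Their part in the member ratios was not tested. The 2 arrays of a pair also differed: with the transgenic extract in Cy5 the member mean was 0.22, 0.097, -0.024 and 0.075, and with it in Cy3 0.0086, 0.21, 0.24 and 0.12. Without the scan 5 pair the mean was 0.12, and within scan 4 it was 0.10.

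**Figure D3:**
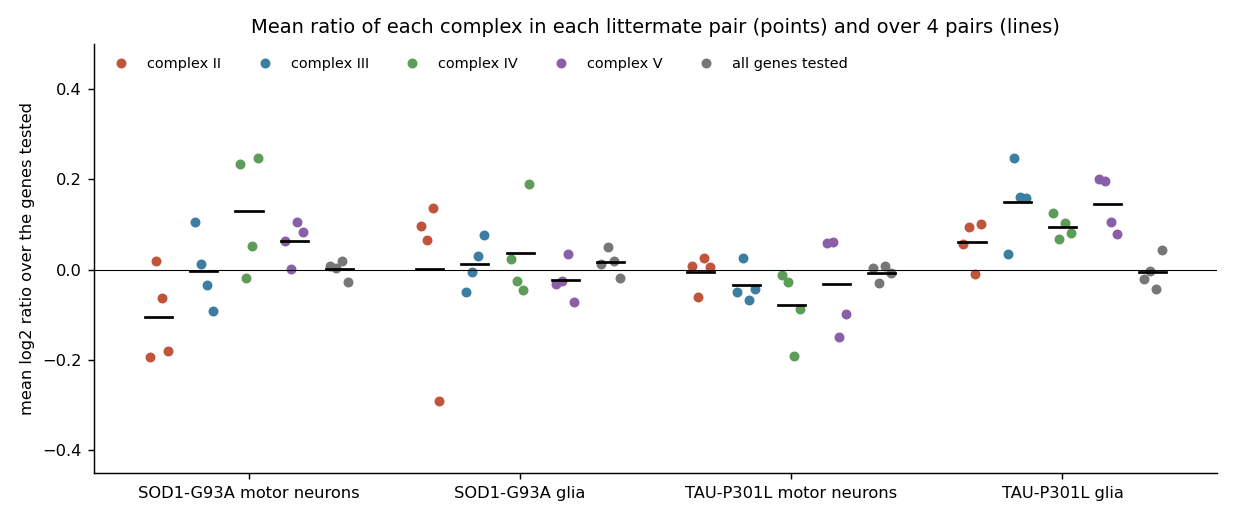
Mean log2 ratio of transgenic over control (vertical axis) over the tested genes of complexes II, III, IV and V and over all genes tested, in each comparison (horizontal axis), with points for the littermate pairs and lines for their means. The complex IV points of TAU-P301L glia lie at 0.069 to 0.13, and those of TAU-P301L motor neurons are all below 0. With median centring the latter were not all below 0 (-0.048 ± 0.32, SD, n = 4 pairs). Under the same centring the complex IV mean of SOD1-G93A motor neurons, 0.13 here, turned to -0.077.

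Complex II genes were below 0 in SOD1-G93A motor neurons in 4 of 4, where 50.1% of all genes were above 0. Their pair means were -0.19, 0.020, -0.063 and -0.18 (-0.10 ± 0.10), with the same sign of the mean under every scaling tried. Sdha, the flavoprotein that oxidises succinate, read -0.31, -0.21, 0.12 and -0.32 there, a mean of -0.18 ± 0.21 (SD, n = 4 pairs) with a limma adjusted p of 0.527. Pair 3, the dim pair, was the only one above 0. The other Sdha probe read -0.046 ± 0.20. Sdhb read -0.46, 0.20, -0.20 and -0.30 (-0.19 ± 0.28, adjusted p = 0.529), with pair 2 above 0. Sdhc and Sdhd were near 0 (-0.020 ± 0.12 and -0.023 ± 0.11).

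In the other comparisons complex II stayed close to 0. Sdhb was below 0 in all 4 TAU-P301L motor neuron pairs, at -0.26, -0.073, -0.013 and -0.21 (-0.14 ± 0.12 (SD, n = 4 pairs), limma adjusted p = 0.999). In SOD1-G93A glia Sdhb read 0.036, -0.063, 0.047 and -0.19 (-0.042 ± 0.11, adjusted p = 0.897). There pair 4 set the spread of the complex, with a complex mean of -0.29 against 0.067 to 0.14 in the other pairs. Sdhd in TAU-P301L glia was above 0 in all 4 pairs, at 0.078, 0.28, 0.029 and 0.10 (0.12 ± 0.11, adjusted p = 0.772).

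Complex III showed no common direction in SOD1-G93A or TAU-P301L motor neurons or in SOD1-G93A glia, with 4 of 8 genes above 0 in each. Uqcrb, a small subunit next to the ubiquinone site, had the smallest p in SOD1-G93A motor neurons at -0.070, 0.14, -0.21 and -0.72 (-0.22 ± 0.37, limma adjusted p = 0.628). Uqcrfs1, the Rieske iron-sulfur protein, was above 0 in all 4 SOD1-G93A glia pairs at 0.054, 0.0019, 0.0057 and 0.41 (0.12 ± 0.19, adjusted p = 0.596), but 3 of the 4 values were close to 0. Uqcrc1, a core protein, had 3 measured pairs in TAU-P301L motor neurons, at -0.45, -0.016 and -0.078 (pairs 1 to 3, -0.18 ± 0.23, adjusted p = 0.999).

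All 8 complex III genes were above 0 in TAU-P301L glia, with complex means of 0.034, 0.25, 0.16 and 0.16. Cyc1, the cytochrome c1 that hands electrons to cytochrome c, had the largest mean there, from -0.25, 0.49, 0.56 and 0.37 in pairs 1 to 4 (0.29 ± 0.37, limma adjusted p = 0.503). Pair 1, of scan 5, was opposite in sign to the others. Uqcrh, the hinge protein, read 0.17 ± 0.20 on its brightest probe but -0.47 on another.

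The mean ratio farthest from 0 of any member in the 4 comparisons was that of Cox4i1 in complex IV. It was below 0 in all 4 SOD1-G93A glia pairs, at -0.36, -0.50, -0.40 and -0.58, a mean of -0.46 ± 0.10 (SD, n = 4 pairs). The 4 values were close together and the lowest member ratio of pairs 1, 2 and 3 was Cox4i1 each time. Its limma p of 0.0029 became an adjusted p of 0.107, above the threshold, and over 15 alternatives the adjusted p ran from 0.073 to 0.92. With median centring in place of loess Cox4i1 read 0.080, where the mean of all members was 0.29. In SOD1-G93A motor neurons the gene read 0.09, 0.036 and 0.84 in pairs 1, 3 and 4 (0.33 ± 0.45, adjusted p = 0.529), and in TAU-P301L it was near 0 in motor neurons (0.010 ± 0.072, 2 pairs) and in glia (0.062 ± 0.27).

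The muscle isoform Cox7a1 had the smallest p of complex IV in SOD1-G93A motor neurons, at 0.51, -0.10, 0.40 and 0.41 (0.31 ± 0.27 (SD, n = 4 pairs), limma adjusted p = 0.529). Pair 2 was below 0 and the other 3 were alike, and the mean was 0.76 from the processed signals. SOD1-G93A glia gave 0.19, 0.59, -0.19 and 0.73 (0.33 ± 0.42, adjusted p = 0.223), with pair 3 below 0, and TAU-P301L motor neurons -0.18, 0.070, -0.15 and -0.40 (-0.17 ± 0.19). The general isoform Cox7a2 spread from -0.28 to 1.15 in SOD1-G93A motor neurons (0.45, 0.10, -0.28 and 1.15) and was tight in TAU-P301L glia (0.22, 0.15, 0.19 and 0.24, 0.20 ± 0.040, adjusted p = 0.772). Cox7a2l read 0.064 ± 0.28, 0.062 ± 0.12 and -0.053 ± 0.09 in SOD1-G93A motor neurons, SOD1-G93A glia and TAU-P301L motor neurons.

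Cox7b, a small subunit needed for assembly of the oxidase, was above 0 in every glia pair of both models. It read 0.35, 0.13, 0.050 and 0.29 in SOD1-G93A glia (0.21 ± 0.14 (SD, n = 4 pairs), limma adjusted p = 0.32) and 0.19, 0.30, 0.063 and 0.13 in TAU-P301L glia (0.17 ± 0.10, adjusted p = 0.478). In motor neurons it was at -0.0029 ± 0.31 and -0.0020 ± 0.23. Cox7b was named because it had 1 sign in all 4 pairs. Of all genes, 9.57% were above 0 in all 4 pairs of SOD1-G93A glia and 8.78% in TAU-P301L glia. The share above 0 in both was not counted. Cox7c, another small subunit, had the smallest p of the complex in TAU-P301L glia at 0.34, -0.42, 0.64 and 0.61 (0.29 ± 0.49, adjusted p = 0.465), with pair 2 well below 0.

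Within the remaining isoform sets, Cox8a was above 0 in all 4 TAU-P301L motor neuron pairs at 0.15, 0.19, 0.081 and 0.62 (0.26 ± 0.24 (SD, n = 4 pairs), limma adjusted p = 0.999). Pair 4 was well above the rest. The testis isoform Cox6b2 was below 0 in the same pairs but small, at -0.11, -0.045, -0.066 and -0.065 (-0.072 ± 0.028, adjusted p = 0.999). Cox6b1 stayed between -0.041 ± 0.070 and 0.00069 ± 0.15 in the 4 comparisons. Cox6a1 read 0.22 ± 0.19 in SOD1-G93A motor neurons (3 pairs) and -0.033 ± 0.48, -0.077 ± 0.19 and -0.044 ± 0.14 in SOD1-G93A glia, TAU-P301L motor neurons and TAU-P301L glia. The muscle isoforms Cox6a2 and Cox8b were tested in SOD1-G93A motor neurons at 0.042 ± 0.10 and 0.12 ± 0.19, and Cox8b in SOD1-G93A glia at 0.051 ± 0.21.

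As a group, complex IV was above 0 in 12 of 15 genes in SOD1-G93A motor neurons, with pair means of 0.24, -0.019, 0.053 and 0.25. The share of all genes above 0 was 50.1%. With median centring complex IV was above 0 in 7 of 15 and all genes in 39.9%. With loess, complex IV was below 0 in 11 of 13 genes in TAU-P301L motor neurons, where 46.4% of all genes were above 0. Its pair means there were -0.011, -0.028, -0.19 and -0.087, the lowest again from pair 3.

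**Figure D4:**
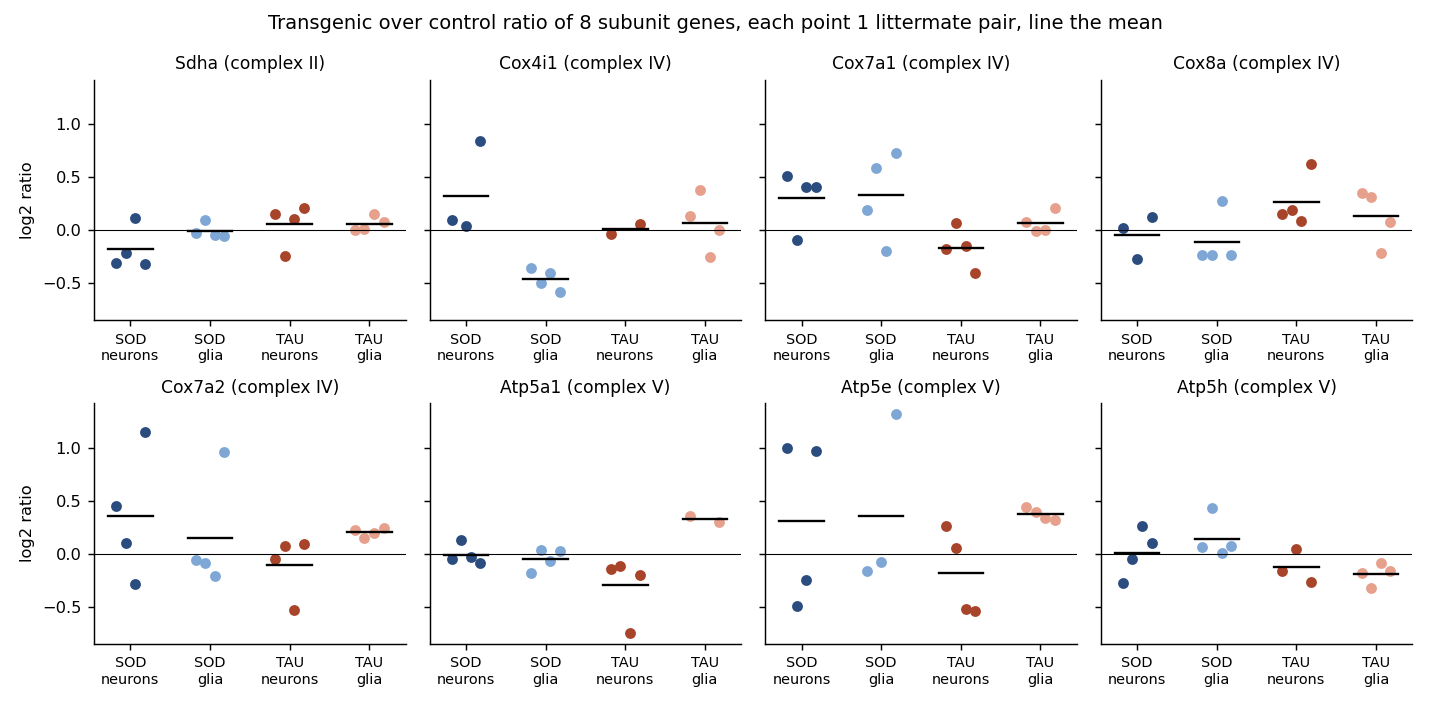
Log2 ratio of transgenic over control (vertical axis) for 8 subunit genes in the 4 comparisons, each point 1 littermate pair and each line the mean of the measured pairs. Cox4i1 lies below 0 in all 4 SOD1-G93A glia pairs (0.080 with median centring in place of loess), while Atp5e spans about -0.5 to 1.3 in the SOD1-G93A comparisons and 0.32 to 0.45 in TAU-P301L glia.

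In complex V the alpha subunit of the catalytic head, Atp5a1, was below 0 in TAU-P301L motor neurons and above 0 in TAU-P301L glia. In motor neurons it read -0.14, -0.11, -0.75 and -0.20, with a mean of -0.30 ± 0.30 (limma adjusted p = 0.999). All pairs were below 0, and pair 3, whose dye-swapped arrays ran against each other at -0.21, lay far below the rest. In glia it had values in pairs 3 and 4 only, 0.36 and 0.30 (0.33 ± 0.040, adjusted p = 0.285). Its other probe read -0.078 in motor neurons and 0.20 in glia. The gamma subunit Atp5c1, the turning shaft of the enzyme, was below 0 in all 4 SOD1-G93A glia pairs at -0.16, -0.46, -0.27 and -0.011 (-0.22 ± 0.19, adjusted p = 0.223), although median centring turned it to 0.31. The beta subunit Atp5b read 0.20 ± 0.18, 0.075 ± 0.28, -0.12 ± 0.19 and 0.17 ± 0.29 in the order SOD1-G93A motor neurons and glia, then TAU-P301L motor neurons and glia. Another Atp5b probe read -0.22, 0.043, 0.092 and -0.0058 in that order, opposite in sign in all but SOD1-G93A glia.

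Among stalk subunits, Atp5h (subunit d) was above 0 in SOD1-G93A glia at 0.067, 0.43, 0.0038 and 0.070 (0.14 ± 0.19, limma adjusted p = 0.469) (mean -0.034 when its probes were averaged) and below 0 in TAU-P301L glia at -0.18, -0.32, -0.092 and -0.17 (-0.19 ± 0.10 (SD, n = 4 pairs), adjusted p = 0.357). It was the sole complex V gene with a mean below 0 in TAU-P301L glia, but its other probe read 0.18 there and the sign of the brightest probe turned with median centring. Atp5f1 (subunit b) was above 0 in the TAU-P301L glia pairs at 0.17, 0.48, 0.18 and 0.20 (0.26 ± 0.15, adjusted p = 0.456). Atp5o, which tethers the head to the stalk, had the smallest p of the complex in SOD1-G93A motor neurons from 0.049, -0.042 and 1.06 in pairs 1 to 3 (0.36 ± 0.61, adjusted p = 0.54). The dim pair 3 alone held its high value, and the mean was 0.0036 without it and 2.54 from the processed signals.

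None of the c-ring genes passed the test. Atp5g3 was above 0 in all 4 TAU-P301L glia pairs at 0.024, 0.57, 0.42 and 0.018 (0.26 ± 0.28, limma adjusted p = 0.447), where Atp5g1 and Atp5g2 read 0.17 ± 0.11 (3 pairs) and 0.10 ± 0.28. In SOD1-G93A motor neurons Atp5g3 was at 0.23 ± 0.33 and the other two at -0.023 ± 0.061 and -0.073 ± 0.26. Atp5e, the epsilon subunit of the central stalk, was picked after its values were seen: it read 0.45, 0.39, 0.34 and 0.32 in TAU-P301L glia (0.38 ± 0.056), the highest mean of the comparison and with a small spread. Its adjusted p was 0.626, in a fit that shares its wide spread in other comparisons, such as 1.00, -0.49, -0.25 and 0.97 in SOD1-G93A motor neurons.

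**Figure D5:**
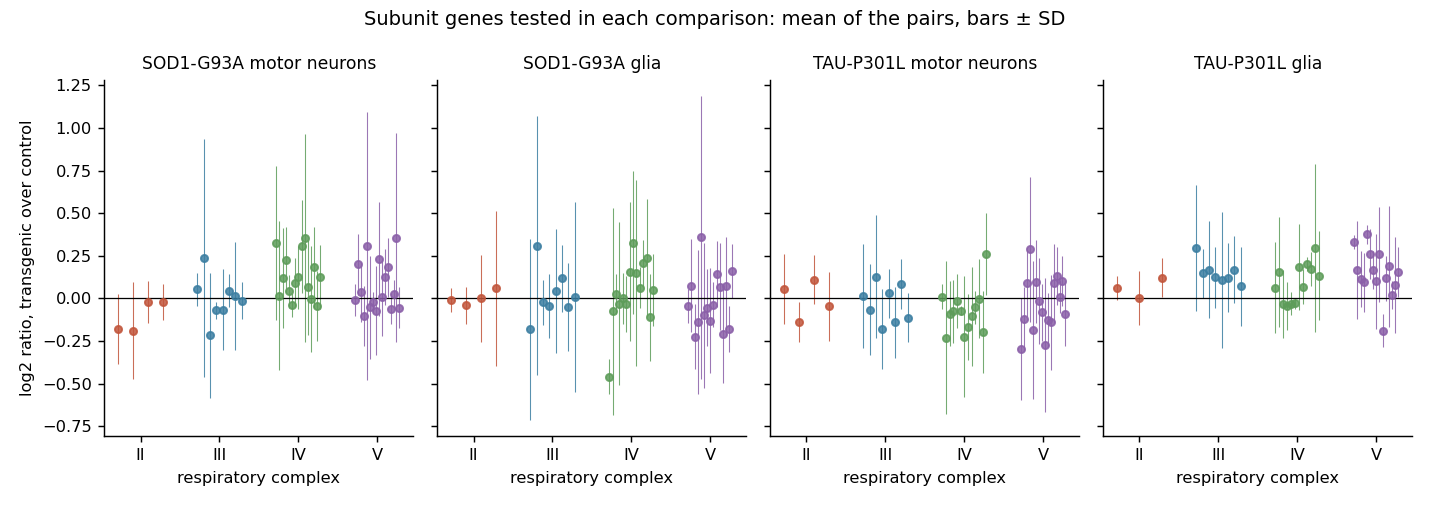
Mean log2 ratio ± SD of the littermate pairs, transgenic against control (vertical axis), for each tested subunit gene, grouped by complex (horizontal axis) in the 4 comparisons. Points straddle 0 in the first 3 panels and 33 of 38 lie above 0 in TAU-P301L glia (50.9% of all genes tested). With median centring 8 of 43 lie above 0 in SOD1-G93A motor neurons (39.9% of all genes) and 40 of 41 in SOD1-G93A glia (70.8%). With that scaling 11 of 43 and 33 of 41 lie above the median of all genes.

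A few pairs had a wide spread over the members. The spread of member ratios within a pair was 0.18 to 0.30 (SD over members) in 14 of the 16 pairs, and 0.42 and 0.54 in pair 4 of SOD1-G93A motor neurons and of SOD1-G93A glia. In SOD1-G93A glia pair 4 the members ran from -0.96 for Cyc1 to 1.32 for Atp5e, with Uqcr at 1.19, Cox7a2 at 0.96, Uqcrq at 0.82 and Cox5a at -0.77. The member mean of that pair was 0.026. Ratios of that pair correlated at 0.69 with SOD1-G93A motor neuron pair 1 (37 members) and at 0.59 with motor neuron pair 4 (32 members), as descriptions over genes that share probes and signal range. Within a comparison the correlations between pairs ran from -0.53 to 0.62, and between comparisons from -0.56 to 0.69.

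The differences between comparisons were tested in the same fit, and 0 members passed in any of the 4, against 0% of all genes (limma, adjusted p under 0.05). At an unadjusted p under 0.05 the members numbered 3 of 43 for SOD1-G93A motor neurons minus glia (background 11.5%) and 5 of 41 for TAU-P301L motor neurons minus glia (4.12%). For SOD1-G93A minus TAU-P301L they numbered 4 of 43 in motor neurons (8.97%) and 5 of 41 in glia (5.55%). Cox4i1 came nearest, with a difference of 0.78 ± 0.19 (SE) between SOD1-G93A motor neurons and glia (adjusted p = 0.138), and it was 0.52 without motor neuron pair 4 and -0.45 with median centring. Differences above 0 numbered 23 of 43 there (background 39.8%). In the same contrast Atp5o differed by 0.54 ± 0.22 (SE), Cyc1 by 0.23 ± 0.24 (SE) (below 0 without glia pair 4 and with median centring) and Sdha by -0.17 ± 0.10 (SE).

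For TAU-P301L, 8 of 41 members had a higher ratio in motor neurons than in glia (background 48.4%), and the mean difference was -0.16. Atp5a1 differed by -0.63 ± 0.15 (SE) (adjusted p = 0.998), Cox7c by -0.49 ± 0.22 (SE), Uqcrc1 by -0.30 ± 0.13 (SE) and Sdhb by -0.28 ± 0.13 (SE). With loess, every complex IV pair mean was below 0 in motor neurons and above 0 in glia. The sign of both comparison means held under every scaling tried, but the pattern over pairs did not. With median centring the motor neuron pairs gave -0.048 ± 0.32 (SD, n = 4 pairs) and were not all below 0.

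Between models, 29 of 43 members had a higher ratio in SOD1-G93A than in TAU-P301L motor neurons (background 51.9%) and 11 of 41 in glia (52.5%). Motor neurons had the smallest p for Cox7a1, at 0.47 ± 0.18 (SE) (SOD1-G93A minus TAU-P301L, limma adjusted p = 0.512), and the smallest of the other complexes were those of Atp5g3 at 0.51 ± 0.20 (SE), Uqcrb at -0.34 ± 0.20 (SE) and Sdha at -0.24 ± 0.10 (SE). In glia the corresponding differences were -0.52 ± 0.17 (SE) for Cox4i1 (adjusted p = 0.736), -0.47 ± 0.24 (SE) for Cyc1, 0.33 ± 0.12 (SE) for Atp5h and -0.18 ± 0.13 (SE) for Sdhb. These contrasts also hold the differences in age and strain.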

How the data were processed

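The 32 Agilent 2-colour mouse arrays were read from the deposited scanner output. Its intensity values were made with Agilent Feature Extraction 8.5.1.1 for motor neurons and 9.5.1.1 for glia, per the file headers. The authors' deposited value table holds log10 ratios, transgenic over control, given to 1 decimal, and served only as an alternative.

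Control spots and spots flagged as outliers were left out. Background was corrected by normexp with offset 50, each array was loess-normalized, and both dye orientations of a pair were averaged as log2 ratios of transgenic over control. All 16 pairs entered 1 fit with limma 3.58.1 (R 4.3.3), also used for the differences between comparisons. Control levels are log2 intensity values per channel after Aquantile normalization, fitted for cell type with colony as covariate. The filter on dim genes asked that both arrays read the brightest probe well above background in 4 or more of the 8 extracts (of a comparison, or of either cell type for control levels). The p-values were Benjamini-Hochberg adjusted over all genes tested, with a threshold of 0.05. Those of the ratios measure the spread between littermate pairs, shared over the 4 comparisons. Those of the control levels measure the spread between extracts, which also holds scan differences. The labels do not say whether motor neurons and glia came from the same mice. The number of arrays limits the precision. The scripts were tested on simulated data.

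Members and gene lists were chosen with earlier results of these data known. Named by rule were members past the threshold, the 3 smallest p-values in each direction among members of 1 sign in all 4 pairs, the smallest p of each complex, and the isoform sets of complex IV and the c subunit. Other members were chosen after their values were seen.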

Additional observations from a re-analysis of the deposited data

Results flagged for a closer look

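Single values that stood far from the rest of their group were looked for in 64 groups of 4 to 10 samples with Dixon's criterion, which chance meets in about 1 of 20 groups. In SOD1-G93A motor neurons the Cox7a1 ratio of pair 2, -0.096, lay below the other 3 pairs, whose lowest was 0.40. In SOD1-G93A glia the Atp5h ratio of pair 2 was high at 0.43, the Uqcrfs1 ratio of pair 4 was high at 0.41, and the mean ratio of complex II in pair 4 was low at -0.29 against 0.067 or more in the others. The Atp5a1 ratio of TAU-P301L motor neuron pair 3 was low at -0.75, with -0.20 the next. The Atp5f1 ratio of TAU-P301L glia pair 2 was high at 0.48, with 0.20 the next.

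Among control motor neurons, SOD1-G93A pair 3 was far below the others in Cox6a1 (9.32, next 12.1), Cox7a2 (8.38, next 9.498), Uqcrq (9.001, next 11.5) and the mean of all members (8.13, next 9.34). Among control glia, TAU-P301L pair 4 had the lowest mean of all members, 9.05, with 9.30 the next.

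With loess, the mean ratio of complex IV was below 0 in all 4 TAU-P301L motor neuron pairs. It was above 0 in all 4 TAU-P301L glia pairs. With median centring the motor neuron pairs gave -0.048 ± 0.32 (SD, n = 4 pairs) and were not all below 0. The comparison means with loess differed by -0.17. The difference of these means was not tested.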

How the results depend on the processing

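In the 4 comparisons and the 4 differences between them, 0 members passed under every alternative run, including those with 1 replicate left out and, for the differences, with the replicate block (0 calls each). The member mean ratio moved with the scaling. From the processed signals it was 0.19 in SOD1-G93A motor neurons and 0.17 in TAU-P301L glia; from the authors' deposited table it was 0.14, 0.024 and 0.18 in SOD1-G93A motor neurons, SOD1-G93A glia and TAU-P301L glia. With median centring these were -0.20, 0.29 and 0.47. Scan 5 alone gave -0.012 in SOD1-G93A glia and scan 6 alone 0.16 in TAU-P301L glia. The cause was not tested. Leaving out 1 replicate gave 0.042 to 0.078, 0.00056 to 0.013, -0.064 to -0.017 and 0.11 to 0.13 in SOD1-G93A motor neurons and glia and TAU-P301L motor neurons and glia.

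The 11 members called between control cell types became 7 from the processed signals, 1 where all 16 control extracts had to be above background (9 genes tested), 2 and 7 in the SOD1-G93A and TAU-P301L colonies alone, 2 with scan as a random block and 8 where each cell type had to be above background in 4 extracts (both added after seeing the data), and 9 to 19 with 1 extract left out. The mean difference then ran from -0.067 to 0.20. Within a model, same-numbered motor neuron and glia samples deviated from their group means with r from -0.11 to 0.28 for ratios. For control levels r ran from -0.074 to 0.50. The labels do not say whether such samples share mice, and these values cannot decide it. The numbers were not used to pair samples, and the replicate block gave 10 calls. Over their alternatives, named members changed sign in 1 of 57, 4 of 89, 0 of 74 and 1 of 119 runs in SOD1-G93A motor neurons and glia and TAU-P301L motor neurons and glia. These members were named for a small p or for 1 sign in all 4 pairs. For members of 1 sign, leaving out a replicate could not turn the mean. The counts therefore do not measure how stable the signs are, and other members were not counted.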
